A study of Mus musculus with 7 samples.

Results

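Immediate early genes were read out of whole-kidney RNA sequencing of wild-type (WT) and mutant male mice. The set was fixed by name, as 10 genes: Fos, Fosb, Jun, Junb, Egr1, Atf3, Ier2, Nr4a1, Dusp1 and Zfp36. Of these, 9 had a row in the authors' normalized table, out of 18793 genes there and 48709 Ensembl genes counted, and the same 9 passed the filter on low counts that left 15394 genes tested. Fosb was listed only in the raw counts, with 11 reads over all libraries. The mutant group is labelled as a double knockout of Hs3st3a1 and Hs3st3b1 (DKO), both heparan sulfate 3-O-sulfotransferase genes. There were 3 WT libraries (replicates 1, 2 and 4) and 4 DKO libraries (replicates 1 to 4), each with its own animal number. The sources used here give no age, strain, allele design, hour of collection or handling before lysis.

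Immediate early genes are transcribed within minutes of a stimulus, without new protein synthesis, from promoters bound by factors such as SRF and CREB that are already in the nucleus. Their mRNAs are short-lived, and many carry AU-rich elements in the 3′ untranslated region that the ZFP36 protein binds. Fos, Fosb, Jun, Junb and Atf3 encode basic leucine zipper proteins that pair as AP-1 or related dimers, and Egr1 and Nr4a1 encode a zinc finger factor and an orphan nuclear receptor. Dusp1, a phosphatase of MAP kinases, and Zfp36, an mRNA decay factor, restrain the same pathways. In kidney these genes respond to ischaemia and to tissue handling, so the value of each library is given.

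Each library held between 18330833 and 24259231 counted reads. Hs3st3a1 received 29, 13 and 12 reads in the WT libraries against 1, 0, 0 and 3 in DKO replicates 1 to 4. Hs3st3b1 received 56, 90 and 112 in WT against 33, 106, 65 and 108 in DKO, so its reads do not separate the groups, and which part of the gene was deleted is not stated in the labels. Kidney markers were abundant on the CPM scale (reads of a gene relative to a library size scaled by TMM, a trimmed mean). The sum of 7 proximal tubule markers was 4455 to 5241 CPM in WT libraries and 5824 to 6734 CPM in DKO. Most of it was Slc34a1, at 3201 ± 191 CPM in WT against 4555 ± 362 CPM in DKO (SD, n = 3 and 4). The sum of 4 thick ascending limb markers was 5557 to 9280 CPM in WT and 3963 to 6232 CPM in DKO. Most of that was Umod, at 6419 ± 1649 CPM and 3996 ± 995 CPM. DKO replicate 3 stood apart from the other 6 libraries in several gene lists described below. Bulk RNA cannot tell fewer cells of a type from less RNA per cell.

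Promoter windows are shown for 4 genes. Fos and Nr4a1 were taken because their highest and lowest libraries differed most (4.04-fold and 5.17-fold), and Dusp1 and Zfp36 as the feedback genes. Matches to TATTTAT in the 3′ untranslated region are shown further below for Fos, Dusp1 and Zfp36, while Nr4a1 had 0. RefSeq promoter windows (GRCm38.p6) were used for 8 of the 10 names, without Egr1 and Ier2. The 250 bases before the start site are printed for 4 genes, 5′ to 3′ on the strand of the gene. The start sites are those of RefSeq. Capitals mark TGACG on either strand (the core of the cAMP response element, which CREB binds), the CArG box (bound by SRF) and TATAAA. The full element TGACGTCA contains that core on both strands. Fos is at chr12:85473640-85473889 (plus strand), Nr4a1 at chr15:101266596-101266845 (plus), Dusp1 at chr17:26508473-26508722 (minus) and Zfp36 at chr7:28379229-28379478 (minus).
Fos: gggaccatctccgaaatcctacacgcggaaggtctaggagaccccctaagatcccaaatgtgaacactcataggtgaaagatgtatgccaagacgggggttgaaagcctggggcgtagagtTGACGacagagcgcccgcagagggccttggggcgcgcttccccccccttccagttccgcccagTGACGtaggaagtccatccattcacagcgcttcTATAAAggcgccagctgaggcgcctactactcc
Nr4a1: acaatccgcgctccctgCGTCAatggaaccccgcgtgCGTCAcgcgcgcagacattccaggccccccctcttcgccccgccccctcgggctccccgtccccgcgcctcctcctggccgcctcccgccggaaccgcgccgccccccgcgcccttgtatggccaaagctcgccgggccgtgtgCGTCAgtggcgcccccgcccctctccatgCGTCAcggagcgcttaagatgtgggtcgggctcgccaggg
Dusp1: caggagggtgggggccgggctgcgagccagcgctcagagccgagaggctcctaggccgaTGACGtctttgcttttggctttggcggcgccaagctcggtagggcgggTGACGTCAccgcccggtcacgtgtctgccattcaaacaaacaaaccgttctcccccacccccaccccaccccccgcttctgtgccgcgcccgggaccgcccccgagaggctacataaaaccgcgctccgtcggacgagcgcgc
Zfp36: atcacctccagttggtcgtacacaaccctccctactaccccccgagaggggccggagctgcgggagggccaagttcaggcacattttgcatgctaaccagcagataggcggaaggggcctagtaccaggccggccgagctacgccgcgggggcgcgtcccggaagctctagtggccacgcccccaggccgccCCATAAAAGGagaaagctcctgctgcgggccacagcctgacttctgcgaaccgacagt

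TGACG on either strand was found in 6 of the 8 member windows, against 17.8% of 32851 RefSeq windows of the same length. Fos holds this core starting at positions -129 and -66 relative to the start site, and Nr4a1 at -233, -213, -69 and -40. The full TGACGTCA was present only in Dusp1 among the 8, at -143, and in 1.55% of all windows. Among the 8 windows a CArG box was present only in Zfp36, at -58, and in 1.47% of all windows. TATAAA was found only in Fos, at -33, and in 12.4% of all windows, whereas TGANTCA, the AP-1 site, was found in 0 of the 8 windows and in 6.75% of all. The zinc finger site of EGR proteins, GCGNGGGCG, was found in Fosb, Zfp36 and Nr4a1 and in 4.7% of all windows. These are matches of letters only, and none of them was tested for binding. Bases outside these windows were not searched, nor were Egr1 and Ier2, so a motif missing here may lie elsewhere.

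The 3′ untranslated regions were searched for TATTTAT on the sense strand, a match to the AU-rich element bound by ZFP36 proteins, in the coding transcript with the longest such region (GENCODE M21, GRCm38). This motif was found in 6 of the 10 members and in 29.5% of the 13425 tested genes with such a region. Among the 9 tested members it occurred 1.3 times per kb, against 0.283 times per kb over all tested genes. Fos, Dusp1 and Zfp36 had more than 1 copy, and these sites are printed with the motif in capitals. The Fos sites lie at chr12:85477103-85477131 and chr12:85477127-85477155, the Dusp1 sites at chr17:26506159-26506187, chr17:26505870-26505898 and chr17:26505674-26505702, and the Zfp36 sites at chr7:28376966-28376994, chr7:28376951-28376979 and chr7:28376926-28376954.
Fos, site 1: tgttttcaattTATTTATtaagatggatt
Fos, site 2: ggattctcagaTATTTATatttttatttt
Dusp1, site 1: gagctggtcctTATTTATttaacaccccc
Dusp1, site 2: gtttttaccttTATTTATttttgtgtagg
Dusp1, site 3: gtatgtttgttTATTTATgatctgaagta
Zfp36, site 1: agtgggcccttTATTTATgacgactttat
Zfp36, site 2: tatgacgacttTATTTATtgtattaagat
Zfp36, site 3: agattttatagTATTTATatatattgggt

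The windows of both Fos sites overlap, as do neighbouring windows of Zfp36. The shorter ATTTA was present in every member except Ier2, with 4 copies each in Fos, Jun and Dusp1, but 69.3% of all tested genes also carried it. The members varied in size, and in GENCODE Atf3 and Dusp1 span 47744 and 56539 nt over all annotated transcripts. Their median span in the genome was 4235 nt with 3 merged exons, against 20547 nt and 8 merged exons for all genes tested, and their median exon length was 3189 nt against 4008 nt. Jun, Ier2 and Zfp36 each consist of 1 merged exon. GENCODE and RefSeq place some start sites apart. The printed RefSeq windows of Nr4a1, Dusp1 and Zfp36 lie inside the GENCODE span of their gene, that of Zfp36 within its exon.

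Levels were expressed per kb of merged exon, which counts the exons of every annotated transcript of a gene, used in kidney or not. The order of genes therefore depends on the annotation. By this measure the highest level was that of Ier2, at 4.26 ± 0.879 CPM per kb (SD over 7 libraries). This exceeded 58.8% of the genes tested. Dusp1 (3.80 CPM per kb), Zfp36 (2.55), Junb (2.14), Jun (1.89) and Nr4a1 (1.19) followed. The lowest were Fos (0.514), Atf3 (0.491) and Egr1 (0.361 CPM per kb), below which lay 17.4%, 16.7% and 12.1% of the genes tested. Neighbours in this order overlapped in their ranges over the libraries. Ier2, Dusp1, Zfp36, Junb and Jun stood at 1.28 CPM per kb or more in every library. Fos, Atf3 and Egr1 reached at most 1.26 CPM per kb, the Fos value of DKO replicate 3. Nr4a1, ranked between these genes, ran from 0.4515 to 2.335 CPM per kb and overlapped both sides, so the order held no gap.

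The plot of CPM by library shows each tested member.

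**Figure D1:**
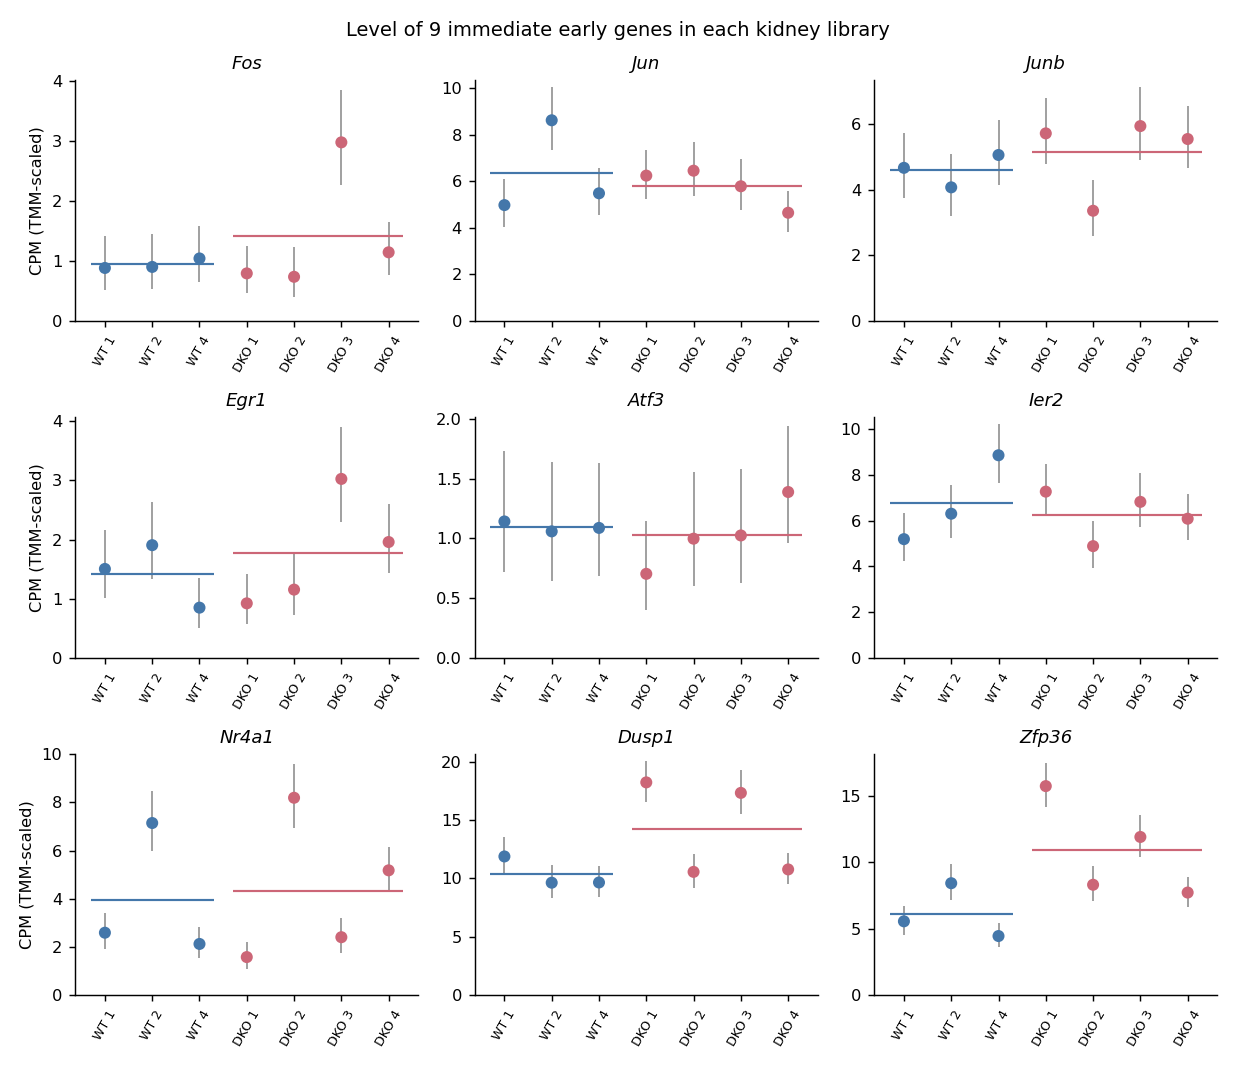
Level of each of the 9 tested members (vertical axis, CPM, starting at 0) in the 3 WT (blue) and 4 DKO (red) libraries. Grey bars are exact 95% Poisson intervals of the count and cover counting error only, and horizontal lines are group means. Fos and Egr1 are highest in DKO replicate 3, Dusp1 and Zfp36 in DKO replicates 1 and 3, and Nr4a1 in DKO replicate 2 and WT replicate 2.

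Among the AP-1 subunits, Fos stood at 0.882, 0.8998 and 1.04 CPM in WT replicates 1, 2 and 4 and at 0.792, 0.735, 2.97 and 1.14 CPM in DKO replicates 1 to 4. DKO replicate 3 alone was high, with 58 reads against 14 to 28 in each of the other libraries, and its 95% Poisson interval (2.26 to 3.84 CPM) lay above theirs. The mean was 0.941 ± 0.0870 CPM over WT libraries (SD, n = 3) and 1.41 ± 1.06 CPM over DKO libraries (SD, n = 4). The log2 fold change was 0.57 (SE 0.50, edgeR adjusted p 0.524), and without DKO replicate 3 it was -0.064. The exact two-sided permutation p of the CPM values was 0.8. This p is 2 times the smaller one-sided p, so it could not fall under 0.05 for any gene. The smallest one-sided p that 3 against 4 libraries allow is 0.0286. Fosb was counted 1, 3 and 0 times in WT and 1, 1, 3 and 2 times in DKO. A floor of 3 counts in WT replicate 4, where Fosb was at 0, is 0.142 CPM. Fosb was left out of the edgeR test, and its exact two-sided permutation p was 0.857, so no difference was detectable at this depth.

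Jun, the main partner of Fos, stood at 4.98, 8.63 and 5.49 CPM in WT and 6.25, 6.46, 5.79 and 4.65 CPM in DKO. WT replicate 2 was highest and DKO replicate 4 lowest, so the groups overlapped. The log2 fold change was -0.14 (SE 0.24, edgeR adjusted p 0.757), and 0.13 without WT replicate 2. Junb, a subunit that often opposes Jun, stood at 4.67, 4.08 and 5.06 CPM in WT and 5.72, 3.36, 5.95 and 5.55 CPM in DKO. Apart from DKO replicate 2, the lowest library of all, the DKO values lay above those of WT (log2 fold change 0.16, SE 0.24, edgeR adjusted p 0.719). The exons of Junb share 173 nt with Prdx2 on the opposite strand, a gene with 59635 reads against 720 for Junb. Because the libraries do not mark the strand, the counts of Junb are uncertain. Jun likewise shares 232 nt with the antisense Junos, which had 115 reads.

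Atf3, a repressor induced by stress, was the steadiest member in WT, at 1.14, 1.06 and 1.09 CPM. Its DKO values were 0.704, 0.998, 1.02 and 1.39 CPM, on both sides of the WT range (log2 fold change -0.088, SE 0.35, edgeR adjusted p 0.901), and the log2 fold change was 0.059 without DKO replicate 1. Each library held only 16 to 34 reads of Atf3, and the Poisson intervals of all 7 libraries overlapped.

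Egr1, which encodes a zinc finger transcription factor, stood at 1.51, 1.91 and 0.852 CPM in WT and 0.924, 1.16, 3.02 and 1.96 CPM in DKO. As for Fos, DKO replicate 3 was highest and DKO replicate 4 next. The groups overlapped (log2 fold change 0.31, SE 0.45, edgeR adjusted p 0.708), and without DKO replicate 3 the log2 fold change was -0.056. Ier2, a nuclear regulator of transcription, stood at 5.19, 6.299 and 8.85 CPM in WT and 7.26, 4.885, 6.82 and 6.08 CPM in DKO. WT replicate 4 was its highest library, and that was the library in which Egr1 was lowest. The log2 fold change of Ier2 was -0.12 (SE 0.23, edgeR adjusted p 0.796), and 0.12 without WT replicate 4.

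Nr4a1 varied most. It stood at 2.60, 7.15 and 2.13 CPM in WT and 1.58, 8.19, 2.41 and 5.18 CPM in DKO. WT replicate 2, DKO replicate 2 and DKO replicate 4 (127 to 156 reads each) were above the other 4 libraries (36 to 50 reads each), and their Poisson intervals did not meet. Both groups held high and low libraries, so the mean was 3.96 ± 2.77 CPM over WT libraries (SD, n = 3) and 4.34 ± 2.99 CPM over DKO libraries (SD, n = 4). The log2 fold change was 0.13 (SE 0.60, edgeR adjusted p 0.915). It was negative without DKO replicate 2 (-0.36), WT replicate 4 (-0.17) or WT replicate 1 (-0.10), and 0.87 without WT replicate 2.

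The feedback genes Dusp1 and Zfp36 had higher means in DKO, without passing the test. Dusp1 stood at 11.9, 9.63 and 9.65 CPM in WT and 18.2, 10.6, 17.3 and 10.8 CPM in DKO. DKO replicates 1 and 3 were above every other library, while DKO replicates 2 and 4 lay within the WT range. The log2 fold change was 0.45 (SE 0.23, edgeR adjusted p 0.282, exact two-sided permutation p 0.286). Its exons share 11 nt with Ergic1 on the opposite strand.

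Zfp36 showed the largest difference of the 9, at 5.55, 8.42 and 4.45 CPM in WT and 15.7, 8.30, 11.9 and 7.71 CPM in DKO. Its exons share 125 nt with Gm44710 on the opposite strand, a gene with 19 reads in all. The groups met only through WT replicate 2, which was above DKO replicates 2 and 4. The mean was 6.14 ± 2.05 CPM over WT libraries (SD, n = 3) and 10.9 ± 3.70 CPM over DKO libraries (SD, n = 4). DKO was thus 1.78-fold higher on average (log2 fold change 0.83, SE 0.30). The edgeR adjusted p was 0.178, the DESeq2 adjusted p was 0.0822 and the exact two-sided permutation p was 0.171. The log2 fold change was 0.60 without DKO replicate 1 and 1.11 without WT replicate 2.

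edgeR's quasi-likelihood test called 0 of the 9 tested members at an adjusted p under 0.05, and 0% of all genes tested. At an unadjusted p under 0.05 the count was 1 of 9 (Zfp36, named for its value), against 21.1% of all genes. The groups were free of overlap for 0 of 9 members, against 17.4% of all genes. DESeq2 called 7.36% of the 9125 genes to which it gave an adjusted p, but gave one to only 2 members, Dusp1 and Zfp36, and called neither. Of the 9 members, 6 were higher and 3 lower in DKO on average, with a median log2 fold change of 0.16 against 0.036 for all genes tested. That median was -0.056 without DKO replicate 3 and 0.39 without WT replicate 2. In simulated counts for the same comparison edgeR recovered 0% of genes changed 1.5-fold and 34% of those changed 2-fold. At 4-fold and 8-fold it recovered 78% and 94%. The changed genes were drawn from all genes tested, not at the level of the members, so these shares do not give the recovery for the members.

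**Figure D2:**
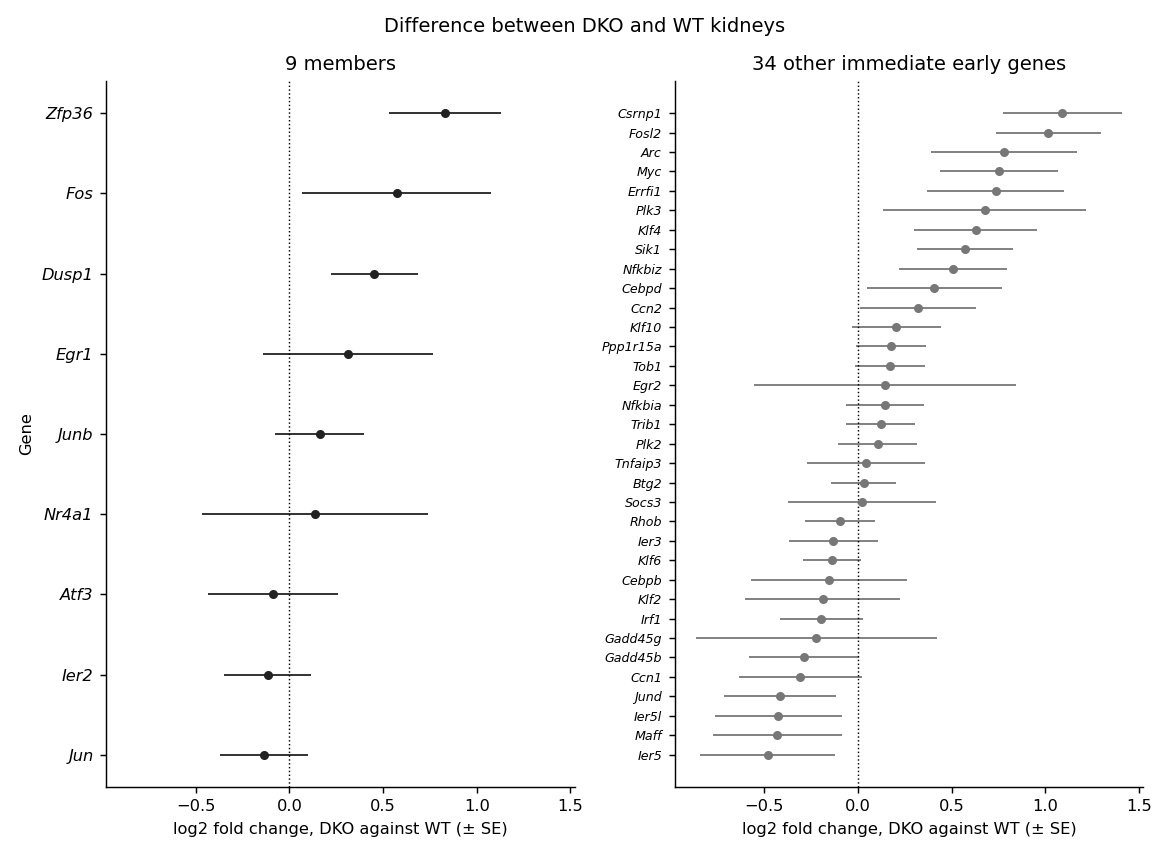
log2 fold change of DKO against WT (horizontal axis, points with standard errors from edgeR) for the 9 tested members (left) and for 34 other immediate early genes (right). Zfp36 lies farthest from 0 among the members at 0.83, and Fosl2 and Csrnp1 lie farthest among the other genes at 1.02 and 1.09.

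The members did not share a common profile across animals. Relative to its own mean over the 7 libraries, each member was highest in DKO replicate 3 in 3 of 9 cases (Fos, Egr1 and Junb) and in DKO replicate 1 in 2 cases (Dusp1 and Zfp36). Single members were highest in WT replicate 2 (Jun), WT replicate 4 (Ier2), DKO replicate 2 (Nr4a1) and DKO replicate 4 (Atf3). DKO replicate 2 was at once the highest library for Nr4a1 and the lowest for Fos, Junb and Ier2. The median deviation of the 9 members was -0.25, 0.022 and -0.11 in the WT libraries and 0.075, -0.20, 0.29 and 0.075 in the DKO libraries on the log2 scale. No library had all members above their means: DKO replicate 3 came closest with 6 of 9, and WT replicate 1 had 2 of 9. The summed level of the 9 members was 38.4, 48.1 and 38.6 CPM in WT and 57.2, 44.6, 57.2 and 44.4 CPM in DKO.

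**Figure D3:**
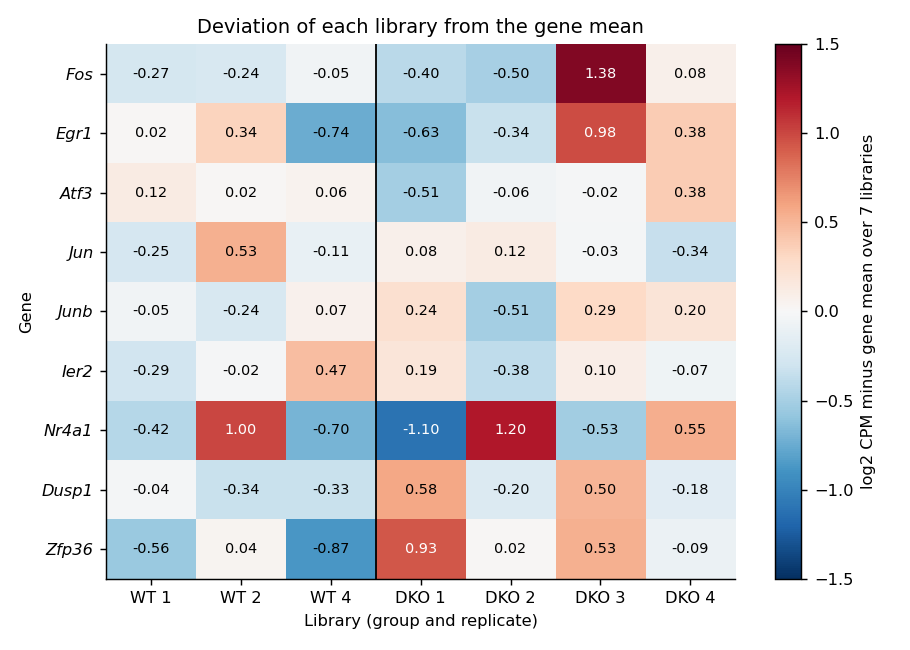
Deviation of log2 CPM from the mean of each gene over the 7 libraries (colour and printed value) for the 9 members (rows) in each library (columns, WT left of the line). DKO replicate 3 is red for Fos (1.38) and Egr1 (0.98), whereas Nr4a1 is red in WT replicate 2 and DKO replicate 2.

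Likeness between members was measured as the root mean square difference of these deviations. It is also small where both members of a pair vary little, so it does not rank how closely members rose and fell together. Junb and Ier2 were the closest pair at 0.24, followed by Junb and Dusp1 at 0.28 and by Dusp1 and Zfp36 at 0.35. Fos and Nr4a1 were the farthest apart at 1.15. The genes outside the set with the smallest difference from the median profile of the members were Rac1, a small GTPase of the cytoskeleton, Aqp11, an intracellular aquaporin, Gnl1, a GTP-binding protein, Tex261, and the cytokine Mif, at 0.058, 0.064, 0.065, 0.067 and 0.068 over the 7 libraries. All of these varied little. Rac1, for example, stood between 10.9 and 14.8 CPM.

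Variation between animals was measured with edgeR's biological coefficient of variation, an estimate of the spread within groups that remains after counting error. Its value for a gene is shared by WT and DKO and is drawn toward that of genes of like level. It was 0.534 for Nr4a1, 0.425 for Fos and 0.391 for Egr1, and from 0.222 (Ier2) to 0.275 (Zfp36) for the other 6. This measure falls with the level of a gene, so each member was set beside the tested genes within 1.5 times its own mean CPM, a comparison chosen after seeing the data. Nr4a1 exceeded 98.4% of the 2060 genes of its level. Zfp36 exceeded 89.1%, Fos 86.2%, Egr1 83.1% and Dusp1 77.1% of theirs. Ier2 (56.1%), Jun (55.8%) and Junb (44.3%) lay in the middle, and Atf3 exceeded only 11.99%. Against all 6176 genes in the CPM range of the members (1.06 to 12.6), without regard to level, the values of Fos and Egr1 were 95.1% and 92.0%. The median SD of log2 CPM was 0.38 in WT and 0.42 in DKO for the members, against 0.32 and 0.30 for genes of that CPM range. For all genes tested it was 0.28 in WT and 0.26 in DKO. With a trend in exon length and GC content removed from each library, the WT median was 0.25 for the members against 0.27 for all genes tested. The DKO median was then 0.43 for the members against 0.25. The greater spread of the members in WT thus depended on the processing.

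**Figure D4:**
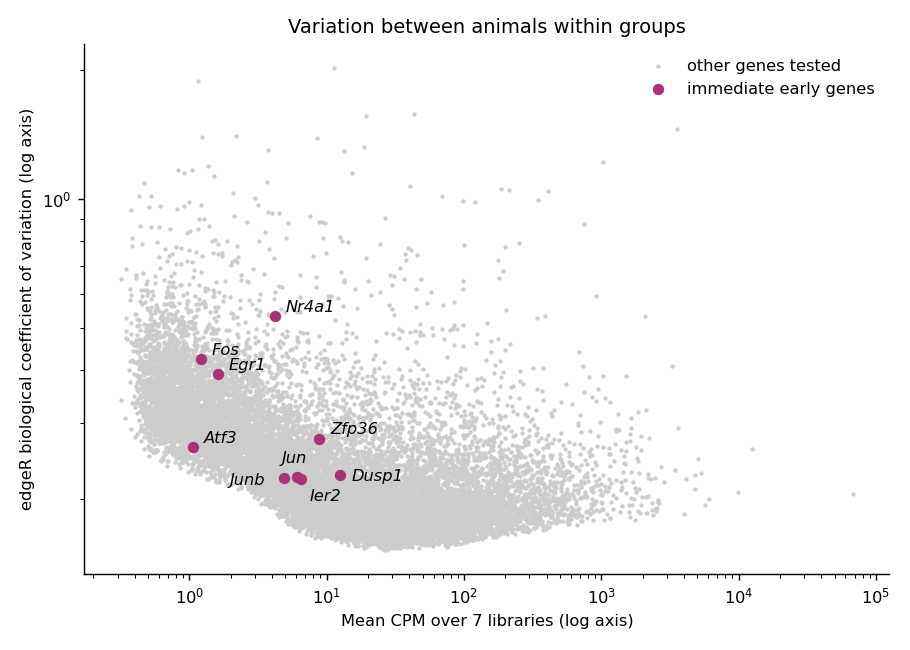
edgeR's biological coefficient of variation (vertical log axis) against mean CPM over the 7 libraries (horizontal log axis) for all 15394 tested genes, with the 9 members marked. Nr4a1 (0.534) lies at the upper edge of the dense cloud at its level, Fos (0.425) and Egr1 (0.391) lie within its upper part, and Atf3 lies near its lower edge.

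A wider list of 43 other immediate early genes, of which 34 were tested, also held 0 genes past the adjusted threshold of edgeR. Of the 34, 21 were higher and 13 lower in DKO, with a median log2 fold change of 0.11. The 2 most abundant were Errfi1, an inhibitor of EGF receptor signalling, at 370 ± 213 CPM in WT against 617 ± 188 CPM in DKO, and Btg2, an antiproliferative gene, at 126 ± 15.7 CPM and 129 ± 21.8 CPM (SD, n = 3 and 4). At an unadjusted p under 0.05 there were 4 of 34, a smaller share than the 21.1% of all genes. All 4 were higher in DKO and are named for their values: the AP-1 subunit Fosl2, the nuclear factor Csrnp1, the transcription factor Myc and the kinase Sik1. Fosl2 stood at 2.13, 2.699 and 1.51 CPM in WT and 3.70, 5.62, 3.84 and 3.96 CPM in DKO, with no overlap (log2 fold change 1.02, SE 0.28, edgeR adjusted p 0.163). Csrnp1 stood at 1.25, 1.85 and 0.946 CPM in WT and 2.68, 3.52, 3.02 and 2.28 CPM in DKO, also with no overlap (log2 fold change 1.09, SE 0.32, edgeR adjusted p 0.163). These 2 are the only tested genes of the list free of overlap, again a smaller share than the 17.4% of all genes. Some members best known from neurons, named for their values, were scarce: Egr3 and Egr4 had 0 reads in all libraries, Npas4 had 2 and Nr4a3 had 3.

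Among 21 upstream regulators (SRF, its cofactors, CREB family members and MAP kinases), 19 were higher in DKO with a median log2 fold change of 0.37, and 0 passed the edgeR threshold. Their exons are long (median 6114 nt), and the median was 0.22 once a trend with length and GC content was taken out of each library. The 2 most abundant were Mrtfb, a cofactor of SRF, at 73.1 ± 4.51 CPM in WT against 97.5 ± 21.2 CPM in DKO, and the kinase Mapk3, at 33.98 ± 6.31 CPM and 40.5 ± 3.83 CPM (SD, n = 3 and 4). Groups were free of overlap for 7 of the 21, against 17.4% of all genes. In the list of other dual specificity phosphatases and ZFP36 relatives, 6 of 8 were higher (median 0.29) and 0 passed. Dusp6, the phosphatase of ERK, was at 27.1 ± 3.86 CPM in WT against 29.5 ± 7.72 CPM in DKO, and Dusp8 at 23.3 ± 4.23 CPM and 26.9 ± 5.96 CPM. Of 10 inflammatory mRNAs known as ZFP36 targets only Ccl2 and Cxcl1 were abundant enough to test. Ccl2, a monocyte chemoattractant, stood at 8.77 ± 3.14 CPM in WT against 5.64 ± 2.304 CPM in DKO, and Cxcl1, a neutrophil chemoattractant, at 0.414 ± 0.238 CPM and 0.732 ± 0.507 CPM (SD, n = 3 and 4). Neither difference passed the edgeR test (adjusted p 0.302 and 0.456).

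Some lists stood apart in libraries where members were high, and their part in the values above was not tested. In DKO replicate 3, where Fos and Egr1 were highest, the median deviation of 14 circadian clock genes was 1.07, against -0.64 to 0.091 in the other 6 libraries. The most abundant of them by mean CPM were Per3, a period gene, at 687 CPM there and 56.3 to 248 CPM elsewhere, and the transcription factor Tef, at 296 CPM there and 77.8 to 148 CPM elsewhere. Named for their values, the repressor Per2 was also high there (14.3 CPM against 1.25 to 2.52), while the activators Bmal1 (2.61 CPM against 11.7 to 30.4) and Npas2 (0.718 CPM against 3.65 to 22.4) were lower there than in any other library. The same library had the lowest median for macrophage and monocyte markers, at -1.37, and for T and NK cell markers, at -1.44.

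Glucocorticoid receptor targets respond to adrenal stress hormones, and Dusp1 is itself known as such a target. Their median deviation was -0.42, 0.039 and -0.51 in WT and 0.47, 0.30, 0.28 and -0.26 in DKO. Both that list and Zfp36 were highest in DKO replicate 1 and lower in WT replicates 1 and 4 than in any other library. Dusp1 was also highest in DKO replicate 1, but its lowest library was WT replicate 2, and WT replicate 1 (11.9 CPM) was above DKO replicates 2 and 4 (10.6 and 10.8 CPM). Of the 10 targets 8 were higher in DKO (median log2 fold change 0.58) and 0 passed the edgeR threshold. The most abundant were the metallothionein Mt1, at 98.7 ± 10.4 CPM in WT against 90.8 ± 21.1 CPM in DKO, and the transcriptional regulator Tsc22d3, at 55.0 ± 7.21 CPM and 105 ± 61.9 CPM (SD, n = 3 and 4). Fkbp5, a cochaperone of the receptor named for its value, stood at 21.8, 22.0 and 21.2 CPM in WT and 41.4, 52.2, 77.4 and 31.8 CPM in DKO, with no overlap (log2 fold change 1.23, SE 0.27). Its adjusted p was 0.163 in edgeR and 0.00907 in DESeq2. Fkbp5 was the only 1 of the 10 targets free of overlap, against 17.4% of all genes. It was also the only 1 called by DESeq2, against 7.36% of the genes given an adjusted p.

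Heat shock genes, another group that reacts to handling, had list medians between -0.069 and 0.23 over the 7 libraries, with 5 of 9 tested genes higher in DKO (median 0.045). Hspa8 was at 1090 ± 128 CPM in WT against 866 ± 224 CPM in DKO, and Hspd1 at 364 ± 80.8 CPM and 442 ± 28.7 CPM (SD, n = 3 and 4). Hspe1, the mitochondrial cochaperone named for its value, was the only heat shock gene called by DESeq2 (log2 fold change -0.73, DESeq2 adjusted p 0.0357, edgeR adjusted p 0.163). That was 1 of the 9 tested, against 7.36% of all genes to which DESeq2 gave an adjusted p. Tubular injury markers were higher in DKO in 6 of 7 (median 0.24), and 0 passed the edgeR threshold. Their sum was 2380 to 2546 CPM in WT, 2465 to 2525 CPM in DKO replicates 2 to 4 and 3175 CPM in DKO replicate 1. Most of it was Spp1, at 2350 ± 99.1 CPM in WT against 2571 ± 346 CPM in DKO. Clu, the next most abundant, was at 85.1 ± 23.0 CPM and 77.3 ± 24.1 CPM (SD, n = 3 and 4).

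**Figure D5:**
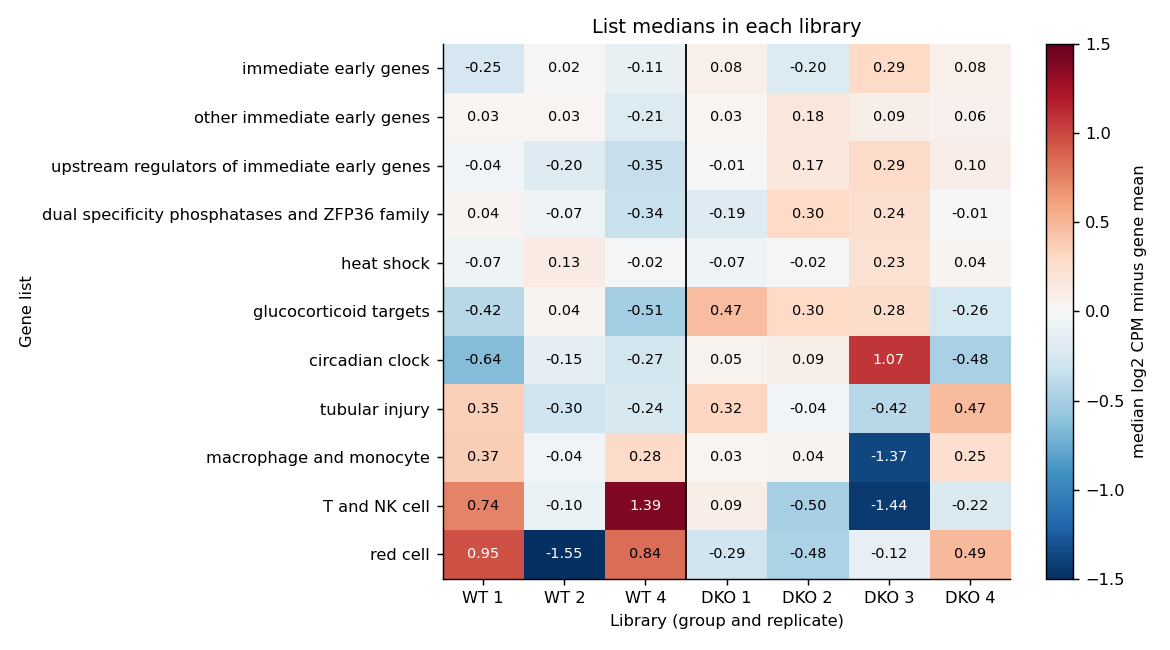
Median deviation of log2 CPM from the gene mean (colour and printed value) for 11 gene lists (rows) in each library (columns, WT left of the line). The immediate early list stays between -0.25 and 0.29, while circadian clock genes reach 1.07 in DKO replicate 3 and red cell genes -1.55 in WT replicate 2.

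Cell types that could supply these transcripts differed between libraries as well, and their part was not tested. No listed marker of these types was at 0 in all libraries. Endothelial markers, 5 of 6 higher in DKO, summed to 205 to 272 CPM in WT and 227 to 279 CPM in DKO. Smooth muscle and fibroblast markers, 3 of 6 higher, summed to 250.2 to 346 CPM and 254 to 348 CPM. Macrophage and monocyte markers, 4 of 5 tested lower in DKO, summed to 129 to 257 CPM and 59.1 to 152 CPM. T and NK cell markers, 4 of 5 tested lower, summed to 9.74 to 20.8 CPM and 8.05 to 11.7 CPM. Neutrophil markers, with 2 of 5 tested, summed to 0.8998 to 3.55 CPM and 0.840 to 6.16 CPM. Red cell genes, 5 of 5 lower, summed to 116 to 897 CPM and 214 to 425 CPM, and their lowest library was WT replicate 2, where Jun was highest.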

How the data were processed

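Per the labels' protocols, kidneys were lysed by sonication, total RNA was isolated on columns, and libraries were made with a kit that does not record strand. The authors deposited raw read counts per Ensembl gene (48733 rows, of which 24 are not Ensembl genes, hold at most 0.000697% of the counts of a library and were left out), a filtered count table with identical values, and TMM-scaled CPM, entered here as signal and used only for gene symbols. Per the submitters' processing notes, the tools were STAR 2.5.2a for alignment, with edgeR, limma and DESeq2 downstream. GRCm38 is listed there, next to GRCh38 with no role given. The sources used here name no counter, annotation release or strand setting.

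From the counts, edgeR 4.0.16 (R 4.3.3) tested DKO against WT with its robust quasi-likelihood F test, TMM scaling and filterByExpr (minimum count 10, minimum total 15). All tests were two-sided. p-values were adjusted by Benjamini-Hochberg over all 15394 genes, with calls at an adjusted p under 0.05. Standard errors were derived from the F statistic. log2 CPM used a prior count of 2. DESeq2 1.42.0 and limma 3.58.1 (voom) were alternatives, beside other scaling, no low-count filter, a length and GC trend removed, a replicate block, animals 2749 to 2764 only, and each library left out. Positions and exon lengths came from GENCODE M21, promoters from RefSeq. The fits were tested on simulated data with 200 changed genes. Each member was also tested by exact permutation of its CPM. Poisson intervals at 95% and the floor of 3 counts cover counting error only, since reads carry no molecular identifiers. Labels give each library its own animal number but do not describe how animals were collected, and p-values measure the spread between these libraries.

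The members and all gene lists were chosen with earlier results of these data known. Outside the members, each list supplied its genes past the threshold (up to 4) or, with none, its 2 most abundant genes, and the 5 genes closest in profile were named. Genes outside this rule are marked as named for their values.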

Additional observations from a re-analysis of the deposited data

Results flagged for a closer look

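Junb in the DKO group was marked because 1 library lay far from the others: DKO replicate 2 stood at 3.36 CPM while DKO replicates 1, 3 and 4 stood at 5.72, 5.95 and 5.55 CPM. The gap to the nearest library, divided by the range of the group, was 0.847, above Dixon's 95% critical value for 4 samples. Chance marks about 1 in 20 groups, and 9 members were examined in this way. The corresponding ratio for Fos, with its high DKO replicate 3, was 0.818, just under that value.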

How the results depend on the processing

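Of the 9 members, 0 were called under all 15 alternatives, and Zfp36, Dusp1 and Junb kept a positive log2 fold change throughout (0.60 to 1.11, 0.28 to 0.57 and 0.057 to 0.32). The number of genes called over the transcriptome was 672 with DESeq2, 66 with no low-count filter, 3 with only the 4 animals with the lowest numbers, 1 with the replicate block and the length and GC trend removed together, and between 0 and 7 with 1 library left out. The median log2 fold change of the members was between -0.056 and 0.39 with 1 library left out. Deviations of same-numbered WT and DKO libraries correlated over genes at -0.13, 0.16 and 0.14. For differently numbered libraries the correlations ran from -0.23 to 0.16. With so few pairs, these values cannot tell whether the replicate numbers mark a pairing or are labels only. With the replicate number as a block the median was -0.076, Fos was -0.092 and Egr1 -0.076, and DKO replicate 3 has no WT partner in that fit. With the block and the length and GC trend removed Fos was -0.0064, Egr1 -0.19 and Ier2 0.033. With only those 4 animals Fos was -0.22, Egr1 -0.71, Ier2 0.084 and Nr4a1 -0.0044. With the length and GC trend removed Ier2 was 0.10 (0.0999) and Atf3 0.038. The median SD in WT was then 0.25 for the members against 0.27 for all genes tested. With 1 library left out the ranges were -0.064 to 0.79 for Fos, -0.056 to 0.57 for Egr1 (0.575), -0.27 to 0.059 for Atf3, -0.29 to 0.12 for Ier2, -0.30 to 0.13 for Jun and -0.36 to 0.87 for Nr4a1. The cause of these changes was not tested. Fos, Egr1 and Atf3 rest on 14 to 59 reads per library, which limits the precision of any difference.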
